A study of Mus musculus with 14 samples.

Results

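The genes of sterol and fatty acid synthesis were described in stomach epithelium isolated from E14.5 mouse embryos, as 31 gene symbols taken from a list of the pathway and its regulators. All 31 were found among the 22798 genes of the deposited FPKM table, and all 31 passed the filter on low values, which asked for 3 or more of the 14 libraries with an FPKM of 1 or higher and left 12694 genes to test. The list holds 18 enzymes of cholesterol synthesis, 6 genes of its control by SREBP (sterol regulatory element binding protein) and 7 enzymes of fatty acid synthesis. The sterol carrier Stard4 is counted among the 6. The RNA-seq libraries were 3 from wild-type hindstomach (controls of the GATA4 conditional knockout, replicates 2, 3 and 4), 5 from hindstomach labelled GATA4 knockout, 3 from wild-type forestomach (controls of the GATA4 conditional knock-in, replicates 2, 3 and 5) and 3 from forestomach labelled GATA4 knock-in (replicates 1, 2 and 4). The sources used here do not give the Cre driver, the alleles or the number of embryos behind a library, and the controls of each region belong to a different allele, so region and cross cannot be told apart.

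Cholesterol is built from acetyl-CoA through mevalonate, isoprenoids, squalene and lanosterol, and fatty acids are built from the same acetyl-CoA by carboxylation and stepwise chain growth. Transcription of both pathways is driven by SREBP factors, which are held in the endoplasmic reticulum by the sterol sensor Scap and the Insig anchor proteins while sterols are plentiful, and are released for processing when sterols fall. Insig1 is itself an SREBP target, so its level is often read alongside those of the enzymes.

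FPKM (fragment counts scaled by transcript length and library size) hold no counts, so absolute depth was unknown. Relative depth read from the steps of low values ran from 48.3% to 100% of the deepest library, but only 5.9% to 18.7% of low genes lay at the step ratio used, so it is approximate. Each library also had its own trend with the GC content of the transcripts, given here as the slope of its log2(FPKM + 1), centred on each gene's mean, per 10% GC. This slope was 0.563 to 0.609 in hindstomach controls and -0.523, -0.415, -0.575, 0.095 and 0.489 in the libraries labelled knockout 1 to 5. It was 0.816, 0.619 and -0.609 in forestomach controls 2, 3 and 5 and -0.700, -0.841 and -0.091 in the libraries labelled knock-in 1, 2 and 4. Gapdh, a glycolytic enzyme often used as a reference, was at 114 to 194 FPKM in the 5 controls with positive slopes and at 2.25 to 11.5 FPKM in the 6 libraries with slopes of -0.415 or below. Gata4 itself stood at 61.6 to 65.7 FPKM in hindstomach controls and at 13.02 to 59.6 in the libraries labelled knockout. Number 5 held the highest of the latter values, close to the controls and, by this gene alone, against its label. Its summed FPKM of 10 glandular stomach markers was 85.5, against 300 to 560 in hindstomach controls. That of 10 squamous markers was 177, against 83.2 to 104. In the forestomach Gata4 was at 0.573 to 4.50 FPKM in controls and at 0.319 to 1.27 in the libraries labelled knock-in, which goes against that label. These libraries differ in GC slope, and control 5, whose slope is also negative, was at 0.573 FPKM. Labelled knock-in 1 and 2 were at 0.402 and 0.319 FPKM. Gata4 is not given here corrected for GC. The sources used here do not say whether transcripts of the knockout or the knock-in allele were counted. The epithelial marker Epcam was detected at 121 FPKM or more in every library, so all hold epithelium. Markers of other cells were present too: the summed FPKM of 12 mesenchyme genes was 54.7 to 172 in hindstomach controls, 251 to 746 in the libraries labelled knockout, 677 to 1180 in forestomach controls and 202 to 542 in those labelled knock-in. In such bulk samples fewer cells of a type and less RNA per cell cannot be told apart.

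**Figure D1:**
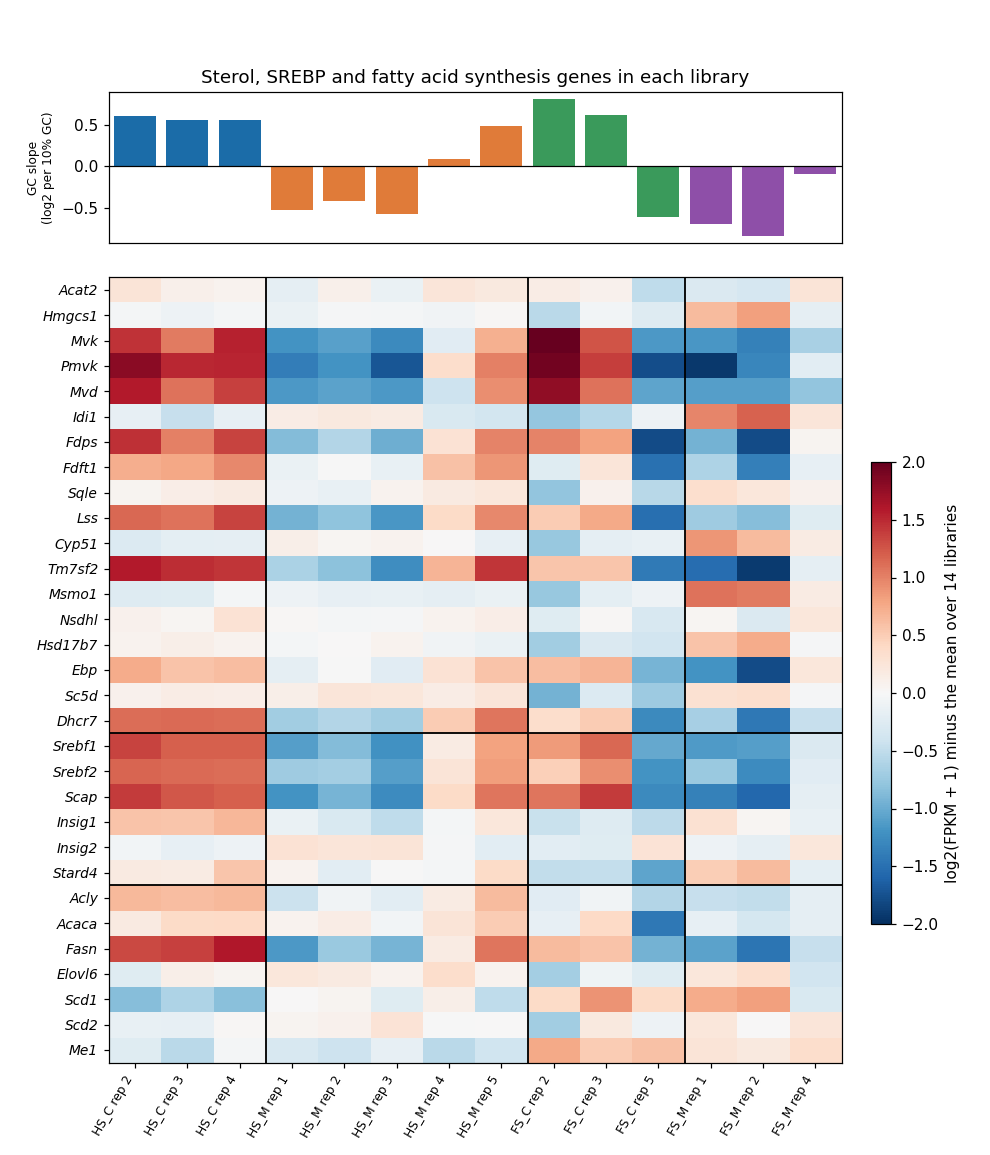
Log2(FPKM + 1) of each of the 31 genes (rows, in pathway order) in each of the 14 libraries (columns) minus the gene's mean over libraries, with colours limited to -2 and 2, and above it the GC slope of each library as bars. HS_C and FS_C are hindstomach and forestomach controls, HS_M and FS_M the libraries labelled knockout and knock-in; horizontal lines part sterol, SREBP and fatty acid genes. Mvk, Pmvk, Mvd, Srebf1, Scap and Fasn are high where the slope is high, whereas Hmgcs1, Idi1, Cyp51 and Msmo1 are highest in labelled knock-in 1 and 2.

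By group mean, 18 of the 31 genes were highest in the hindstomach controls, 9 in the forestomach labelled knock-in, 2 in the hindstomach labelled knockout (Insig2 and Elovl6) and 2 in the forestomach controls (Scd1 and Me1). Per transcript length the most abundant was Scd2, a stearoyl-CoA desaturase that makes monounsaturated fatty acids, at 195, 192 and 220 FPKM in hindstomach controls 2, 3 and 4. It stood at 225, 230, 260, 214 and 216 FPKM in labelled knockout 1 to 5, at 132, 246 and 201 in forestomach controls 2, 3 and 5, and at 253, 216 and 254 in labelled knock-in 1, 2 and 4. Scd2 groups overlapped in each of the 3 comparisons and its log2 fold changes on the FPKM + 1 scale were 0.18, 0.36 and 0.11, with limma adjusted p of 0.449, 0.182 and 0.718. Its paralog Scd1 was far lower, at 0.880 to 5.32 FPKM over all libraries, and the sources used here do not say how fragments were shared between these close copies.

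Control hindstomach was compared with control forestomach to ask how the pathway differs between glandular and squamous stomach epithelium. Of the 31 genes 5 were higher in hindstomach (Fdft1, Sc5d, Insig1, Stard4 and Acly) and 2 were higher in forestomach (Scd1 and Me1), where 20.3% of all genes tested were called, 9.7% higher and 10.7% lower. By role, 2 of 18 sterol enzymes, 2 of 6 SREBP control genes and 1 of 7 fatty acid enzymes were higher in hindstomach, and the 2 lower genes were both of the fatty acid group. The median log2 fold change was 0.72 over the 31 genes and 0.14 over all genes, and without forestomach control 5 these were 0.30 and -0.05. Groups did not overlap for 14 genes that were above and 2 that were below (23% and 18.4% of all genes).

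Insig1, the endoplasmic reticulum anchor of the SREBP and Scap complex, stood at 37.2, 36.7 and 39.4 FPKM in hindstomach controls 2, 3 and 4 and at 17.8, 20.5 and 16.8 FPKM in forestomach controls 2, 3 and 5. Every hindstomach library was thus well above every forestomach library, with a log2 fold change of 1.01 (SE 0.18, limma adjusted p = 0.00195), and the call held under each alternative tried. The cytosolic sterol carrier gene Stard4 was at 14.6, 14.53 and 19.4 FPKM in hindstomach and 8.83, 8.97 and 5.64 in forestomach controls (0.97, SE 0.24, adjusted p = 0.0131 by limma, 0.0689 without hindstomach control 4 and 0.0572 with the compared groups alone). The groups were again apart, with forestomach control 5 the lowest. Insig2, the second Insig gene, differed by -0.05 (SE 0.19, limma adjusted p = 0.872), with overlapping groups.

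Among the sterol enzymes Sc5d, the sterol C5-desaturase near the end of the pathway, was at 18.4, 19.2 and 19.0 FPKM in hindstomach controls and 8.45, 14.1 and 9.97 in forestomach controls (0.78, SE 0.17, limma adjusted p = 0.00512, and 0.0814 in a fit of the compared groups alone). Fdft1, the squalene synthase that commits isoprenoids to sterols, was at 49.3, 51.2 and 58.3 FPKM in hindstomach and 24.6, 35.2 and 9.81 in forestomach (1.32, SE 0.43, limma adjusted p = 0.0473). Its groups did not overlap, but the call ended without any one of the hindstomach controls or without forestomach control 2 or 5, at adjusted p of 0.0676 to 0.159 and log2 fold changes of 0.82 to 1.44. Hmgcs1, the cytosolic HMG-CoA synthase, was at 56.3, 53.7 and 56.4 FPKM in hindstomach and 39.7, 56.1 and 48.5 in forestomach controls (0.22, SE 0.22, limma adjusted p = 0.513). Sqle, the squalene epoxidase and an early oxygen-requiring step, was at 59.8, 63.3 and 65.4 against 32.8, 60.8 and 39 FPKM (0.55, SE 0.20, limma adjusted p = 0.0708). For both, forestomach control 3 lay at or near the hindstomach level while control 2 was lowest.

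On the fatty acid side Acly, which cleaves citrate to cytosolic acetyl-CoA for both pathways, was at 93.9, 92.8 and 94.1 FPKM in hindstomach and 51.1, 57.1 and 39.4 in forestomach controls (0.93, SE 0.24, limma adjusted p = 0.014, and 0.0502 without hindstomach control 4). The hindstomach values were nearly equal and all above the forestomach. Scd1 went the other way, at 0.880, 1.23 and 0.902 FPKM in hindstomach and 3.44, 5.32 and 3.42 in forestomach (-1.32, SE 0.30, limma adjusted p = 0.00704). Me1, the cytosolic malic enzyme that supplies NADPH, was likewise lower in hindstomach, at 3.70, 2.82 and 4.38 against 8.39, 6.91 and 7.33 FPKM (-0.89, SE 0.17, limma adjusted p = 0.00296, and 0.0542 in a fit of the compared groups alone). Fasn, the fatty acid synthase, was at 14.7, 15.3 and 18.2 FPKM in hindstomach and 8.75, 8.37 and 2.25 in forestomach, apart in every library, with 1.35 (SE 0.56, limma adjusted p = 0.114). With the GC slope as a covariate the same 7 genes were called and 16 in all, 14 higher in hindstomach and 2 lower, in a fit that called 42% of all genes. The mesenchyme markers above differed between these groups as well, 9 of 11 measured being called lower in hindstomach, and their part in these differences was not tested.

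**Figure D2:**
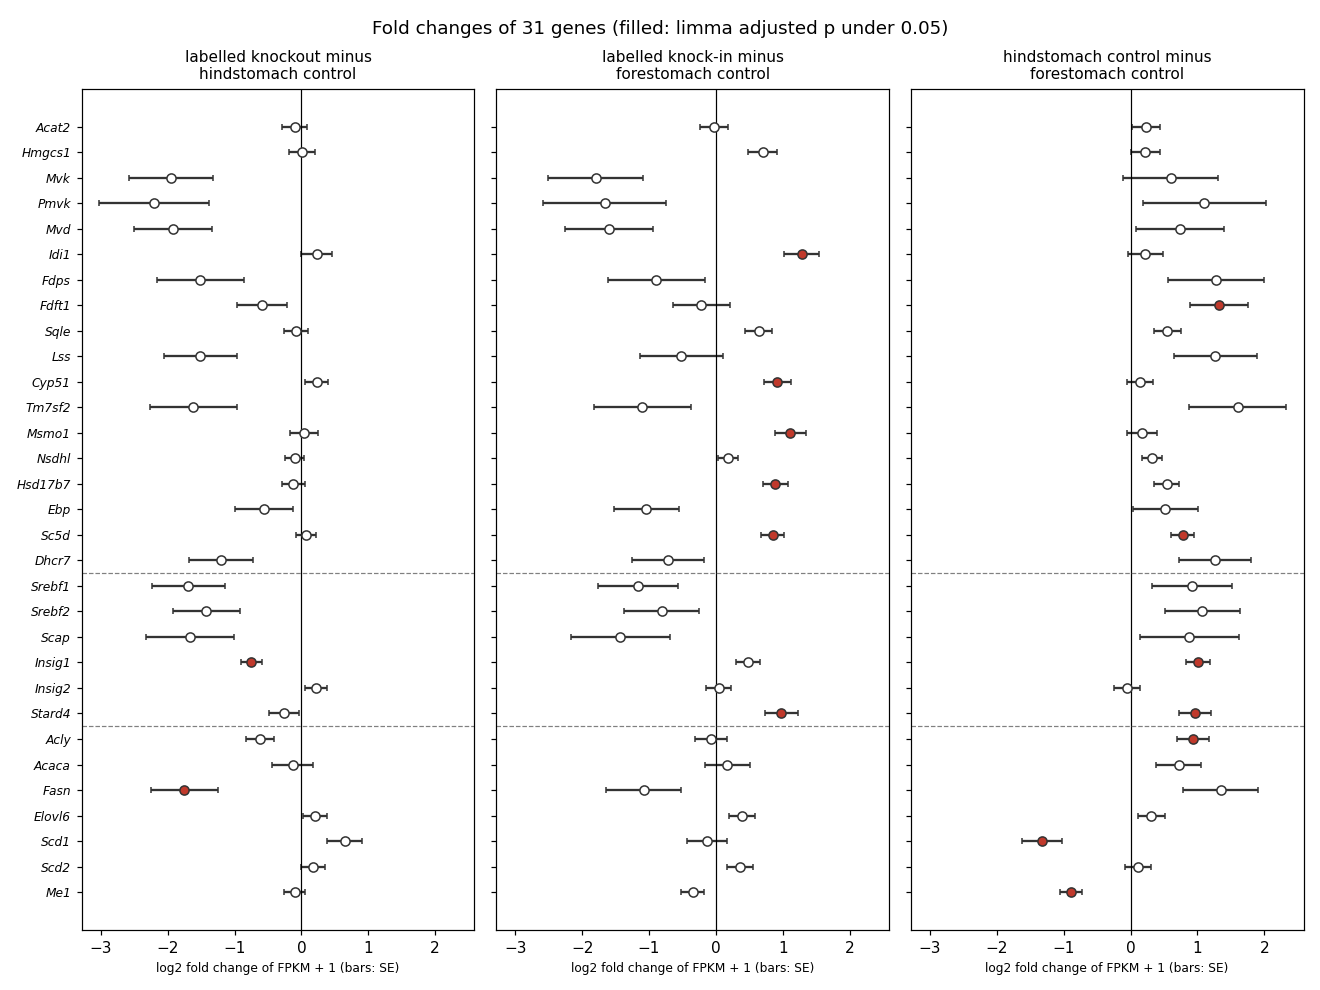
Log2 fold change of FPKM + 1 with its standard error (points and bars) for each of the 31 genes in pathway order, in the labelled knockout against hindstomach control (left), the labelled knock-in against forestomach control (middle) and the control regions (right). Filled points passed a limma adjusted p under 0.05, which are 2, 6 and 7 genes, and dashed lines part sterol, SREBP and fatty acid genes.

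In the hindstomach labelled knockout 2 of the 31 genes fell, Insig1 and Fasn, and 0 rose, where 13.2% of all genes tested were called, 6.28% lower and 6.96% higher. Without adjustment, 14 of the 31 genes had a limma p under 0.05, 13 lower and 1 higher. Of all 12694 genes 4908 had such a p, a count not split by direction. The libraries labelled knockout lay below every control for 13 of the 31 genes and above every control for 2 (Cyp51 and Scd1), where 24.9% and 17.7% of all genes did so. The median log2 fold change was -0.26 over the 31 genes and -0.08 over all genes. None of the 18 sterol enzymes passed, with a median of -0.34 and a range from -2.20 to 0.23, and 7 of them had an unadjusted p under 0.05, all lower. With the GC trend subtracted from each library 3 of the 18 passed, all lower, Mvd, Mvk and Lss, the lanosterol synthase (-1.44, limma adjusted p = 0.0443), whereas with the GC slope as a covariate 0 passed. In the same comparison 8 of 11 mesenchyme markers rose and all 8 measured glandular stomach markers fell, and their part in the values of the 31 genes was not tested.

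Insig1 fell from 37.2, 36.7 and 39.4 FPKM in controls to 22.4, 19.7, 16.9, 23.9 and 29.1 FPKM in labelled knockout 1 to 5. All 5 were below the lowest control, and number 5 was the closest to it. This gave a log2 fold change of -0.75 (SE 0.16, limma adjusted p = 0.015), and one of -0.60 (adjusted p = 0.0393) with the GC slope as a covariate. The call ended without hindstomach control 2 (adjusted p = 0.0694) or 4 (0.0942), and after rescaling to a common sum (-0.46, adjusted p = 0.0999). Fasn fell from 14.7, 15.3 and 18.2 FPKM to 1.85, 2.77, 2.29, 6.07 and 12.2 FPKM, again with number 5 nearest the controls. It changed by -1.75 on the log2 scale (SE 0.50, limma adjusted p = 0.04), and only leaving out labelled knockout 5 kept the call (0.0068), whereas without any other library adjusted p was 0.0555 to 0.165. With the GC slope as a covariate Fasn stood at -0.63 (adjusted p = 0.0559), and with the GC trend subtracted from each library at -0.78 (adjusted p = 0.0123). With only labelled knockout 4 and 5, whose slopes are positive, Insig1 stood at -0.50 (adjusted p = 0.268) and Fasn at -0.82 (adjusted p = 0.649).

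The SREBP genes themselves were lower in every library labelled knockout but did not pass. Srebf1, whose product drives mainly fatty acid synthesis, was at 6.25, 5.57 and 5.55 FPKM in controls and 0.328, 0.561, 0.237, 2.21 and 3.99 FPKM in labelled knockout 1 to 5 (-1.69, SE 0.54, limma adjusted p = 0.0553). Srebf2, whose product drives mainly sterol synthesis, was at 26.4, 25.7 and 25.5 against 6.47, 6.61, 4.68, 13.6 and 20.9 FPKM (-1.42, SE 0.50, limma adjusted p = 0.0724). In both, labelled knockout 1, 2 and 3 were lowest, then 4, then 5, which is also the order in which the GC slope separates these libraries. Gata4 separates them in the same order, at 16.9, 19.4, 13.02, 32.1 and 59.6 FPKM in numbers 1 to 5. The GC slope and the Gata4 level thus cannot be told apart in these libraries. Without labelled knockout 5 Srebf1 and Srebf2 passed, at limma adjusted p of 0.0154 and 0.022. With the slope as a covariate they stood at -0.47 and -0.29 (adjusted p = 0.11 and 0.331), and with the GC trend subtracted at -0.69 and -0.44 (adjusted p = 0.0197 and 0.074). Scap, the sterol sensor, had a log2 fold change of -1.67 (adjusted p = 0.0963) and Insig2 one of 0.22 (adjusted p = 0.321).

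The other genes called between regions had these values in the libraries labelled knockout. Fdft1 was at 26.7, 29.4, 26.5, 44.7 and 54.9 FPKM in numbers 1 to 5, and Acly at 44.4, 56.9, 51.8, 67.5 and 93.4 FPKM. In both, number 5 lay inside the control range and the others below it. Scd1 was at 2.42, 2.53, 1.88, 2.69 and 1.41 FPKM, all above its controls, and Me1 at 3.42, 3.18, 3.93, 2.80 and 3.21 FPKM, overlapping them. None of the 4 passed (limma adjusted p = 0.252, 0.0663, 0.0994 and 0.639).

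The 6 genes that rose in the forestomach labelled knock-in, described further on, did not pass in the hindstomach labelled knockout. Idi1 was at 68.5, 55.8 and 68.2 FPKM in hindstomach controls 2, 3 and 4 and 85.1, 88.1, 86.7, 61.8 and 59.1 in labelled knockout 1 to 5. Msmo1 was at 49.9, 50.5 and 58.3 against 55.7, 53.4, 54.0, 52.9 and 54.6 FPKM, and Cyp51 at 30.8, 32.7 and 32.8 against 40.5, 38.5, 39.5, 37.5 and 33.2 FPKM. Cyp51 was above control in all 5 libraries, whereas Idi1 was above only in numbers 1, 2 and 3 and Msmo1 lay within its controls. Hsd17b7 was at 8.48, 8.85 and 8.55 against 7.85, 8.15, 8.50, 7.63 and 7.24 FPKM. Sc5d was at 18.7, 20.5, 20.3, 19.1 and 20.6 and Stard4 at 13.51, 10.9, 12.7, 12.5 and 17.1 FPKM in labelled knockout 1 to 5. The log2 fold changes of the 6 ran from -0.26 to 0.23, with limma adjusted p of 0.319 to 0.900.

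Steps of the sterol pathway next to each other had unlike values in this comparison. Hmgcs1 was at 52.8, 57.0, 56.6, 55.0 and 58.9 FPKM in labelled knockout 1 to 5, inside or just outside the control range (0.01, SE 0.19, limma adjusted p = 0.959). Sqle was at 53.3, 51.8, 60.6, 65.4 and 67.5 FPKM (-0.08, SE 0.18, limma adjusted p = 0.74), spanning the controls. The enzymes between them, Mvk, Pmvk and Mvd, which phosphorylate and decarboxylate mevalonate, had log2 fold changes of -1.95, -2.20 and -1.92, with limma adjusted p of 0.0587, 0.0834 and 0.0503. With the GC slope as a covariate they stood at -0.51, -0.30 and -0.62 (adjusted p = 0.155, 0.395 and 0.139), and with the GC trend subtracted at -1.08, -1.28 and -0.90 (adjusted p = 0.0207, 0.0521 and 0.0193). Mvk for example was at 5.95, 4.22 and 6.38 FPKM in controls and 0.115, 0.204, 0.0510, 1.19 and 3.15 in labelled knockout 1 to 5. Their transcripts were rich in GC, at 56.3%, 57.0% and 59.0%, against 43.1% for Hmgcs1 and 48.6% for Sqle. All 13 genes whose libraries labelled knockout lay below every control had 48.2% GC or more, and in all 13 labelled knockout 5 was the one nearest the controls. That library had both the highest GC slope and the highest Gata4 of its group, which cannot be told apart.

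**Figure D3:**
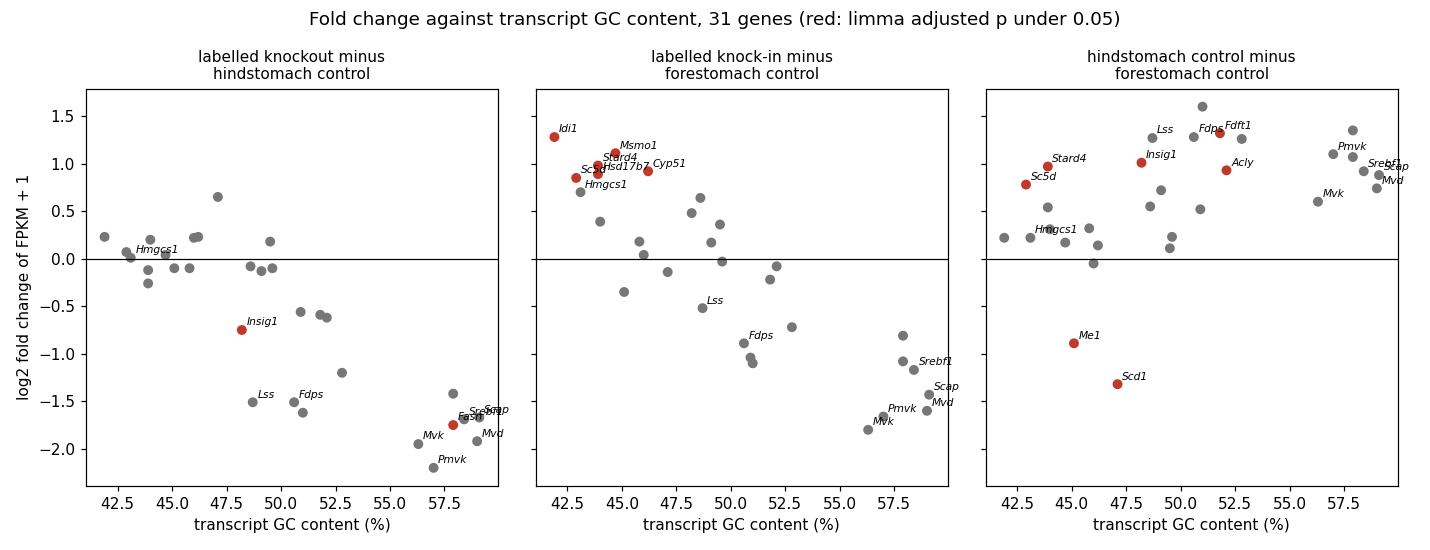
Log2 fold change of FPKM + 1 (vertical) against transcript GC content in percent (horizontal) for the 31 genes in the same 3 comparisons, with genes passing a limma adjusted p under 0.05 in red. In both comparisons of labelled mutants the points fall from left to right, with Idi1 (41.9% GC) near the top and Mvk (56.3%) near the bottom in each.

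Over the 31 genes the log2 fold change fell with transcript GC content in both mutant comparisons, with a correlation across genes of -0.84 in the labelled knockout and -0.87 in the labelled knock-in, beside -0.56 and -0.63 over 12609 genes. Genes are not independent replicates and all points of a comparison share its libraries, so these are descriptions only. The 13 genes with at least 50% GC all had negative fold changes in both comparisons, with medians of -1.62 and -1.08. The other 18 had medians of -0.03 in the labelled knockout and 0.43 in the labelled knock-in. The median GC content of the 31 genes was 49.1%, close to the 49.3% of all genes with a value, but its range of 41.9% to 59.1% spread consecutive enzymes along this axis. The part of the GC trend in these fold changes was not tested beyond the 2 corrected fits given beside the calls.

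In the forestomach labelled knock-in 6 of the 31 genes rose and 0 fell, where 5.85% of all genes tested were called, 2.62% higher and 3.22% lower. Without adjustment, 11 of the 31 genes had a limma p under 0.05, 9 higher and 2 lower. Of all 12694 genes 4629 had such a p, a count not split by direction. The risen genes were 5 of 18 sterol enzymes, Idi1, Cyp51, Msmo1, Hsd17b7 and Sc5d, and 1 of 6 SREBP control genes, Stard4, while 0 of 7 fatty acid enzymes passed (0 also at an unadjusted p under 0.05). Groups did not overlap for 8 genes above, the 6 that rose together with Sqle and Insig1, and for 1 below, Me1, where 7.78% and 12.2% of all genes did so. The median log2 fold change of the 31 genes was -0.08 and that of all genes -0.37. Since Gata4 FPKM goes against the label of these libraries, the direction is given as labelled. Among other markers in this comparison, 6 of 9 measured squamous markers were called lower and 0 higher. With the GC slope as a covariate 2 of the 9 were called lower. Of 8 measured glandular stomach markers 0 were called in either direction. Of the 10 listed, 9 were under 1 FPKM in every forestomach control and 9 in every library labelled knock-in. At such low values this count cannot show whether they changed.

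Idi1, which isomerises isopentenyl diphosphate ahead of the prenyl transferases, was at 44.8, 51.4 and 71.8 FPKM in forestomach controls 2, 3 and 5 and at 153, 176 and 91.0 FPKM in labelled knock-in 1, 2 and 4. All 3 were above the highest control, number 4 being the closest to it, with a log2 fold change of 1.28 (SE 0.26, limma adjusted p = 0.0213). Msmo1, the C4-methyl sterol oxidase, was at 35.1, 52.1 and 56.0 FPKM in controls and 128, 124 and 67.5 in labelled knock-in (1.11, SE 0.23, limma adjusted p = 0.0222). Its partner in removing those methyl groups, Hsd17b7, a sterol 3-ketoreductase, was at 4.62, 6.39 and 5.95 against 12.4, 14.1 and 7.96 FPKM (0.89, SE 0.19, limma adjusted p = 0.0253). In both genes numbers 1 and 2 were well above control and number 4 just above. The third member of that step, the decarboxylating dehydrogenase Nsdhl, differed by 0.18 (SE 0.15, limma adjusted p = 0.369), with overlapping groups.

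Cyp51, the lanosterol 14-alpha-demethylase, was at 21.8, 33.1 and 33.7 FPKM in forestomach controls and 69.7, 58.6 and 42.0 in labelled knock-in 1, 2 and 4 (0.92, SE 0.20, limma adjusted p = 0.0253). Sc5d was at 8.45, 14.1 and 9.97 against 21.4, 22.0 and 16.9 FPKM (0.85, SE 0.17, limma adjusted p = 0.0166), and Stard4 at 8.83, 8.97 and 5.64 against 18.3, 20.5 and 11.04 FPKM (0.98, SE 0.24, limma adjusted p = 0.0402). For all 6 genes that rose, labelled knock-in 4 was the lowest of its group. Sc5d and Stard4 were also higher in hindstomach than in forestomach among controls, a comparison that shares these forestomach controls, and their means in labelled knock-in, 20.1 ± 2.81 and 16.6 ± 4.94 FPKM (SD, n = 3), lay beside 18.9 ± 0.403 and 16.2 ± 2.77 in hindstomach controls (n = 3). Idi1, Msmo1 and Cyp51 had means of 140 ± 44.0, 106 ± 33.9 and 56.8 ± 13.9 FPKM in labelled knock-in against 64.2 ± 7.23, 52.9 ± 4.68 and 32.1 ± 1.10 in hindstomach controls, a pair of groups that was not tested.

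**Figure D4:**
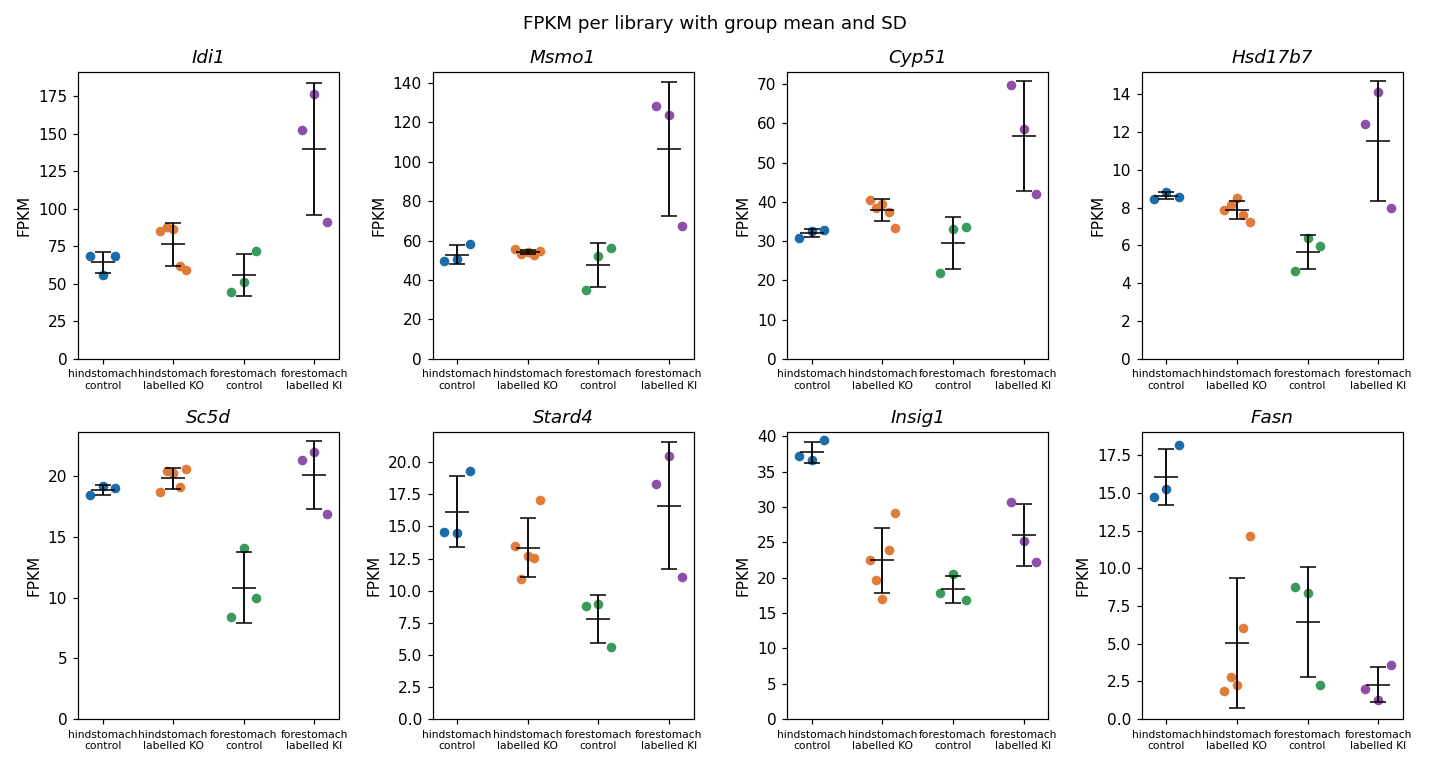
FPKM in each library (points) with group mean and SD (bars; n = 3, 5, 3 and 3) for the 6 genes that rose in the forestomach labelled knock-in and the 2 that fell in the hindstomach labelled knockout. KO and KI stand for knockout and knock-in. The labelled knock-in values of Idi1, Msmo1, Cyp51, Hsd17b7, Sc5d and Stard4 are all above the forestomach controls, and Insig1 and Fasn are below the hindstomach controls in all 5 libraries labelled knockout.

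Hmgcs1 and Sqle had positive fold changes that did not pass. Hmgcs1 was at 39.7, 56.1 and 48.5 FPKM in forestomach controls and 90.2, 103 and 50.8 in labelled knock-in 1, 2 and 4 (0.70, SE 0.22, limma adjusted p = 0.0679), so number 4 lay inside the control range. Sqle was at 32.8, 60.8 and 39 against 73.1, 67.6 and 60.8 FPKM (0.64, SE 0.20, limma adjusted p = 0.0677), with number 4 only just above control 3. Insig1 was at 17.8, 20.5 and 16.8 against 30.7, 25.3 and 22.2 FPKM (0.48, SE 0.18, limma adjusted p = 0.106). It did not overlap and passed after rescaling to a common sum (0.89, adjusted p = 0.0394).

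Srebf1, Srebf2 and Fasn had negative fold changes that did not pass. Srebf1 was at 4.14, 5.35 and 0.406 FPKM in forestomach controls 2, 3 and 5 and 0.303, 0.327 and 1.33 in labelled knock-in 1, 2 and 4 (-1.17, SE 0.60, limma adjusted p = 0.16). Srebf2 was at 16.1, 22.2 and 4.31 against 6.29, 4.09 and 9.42 FPKM (-0.81, SE 0.56, limma adjusted p = 0.265), and Fasn at 8.75, 8.37 and 2.25 against 1.99, 1.29 and 3.59 FPKM (-1.08, SE 0.56, limma adjusted p = 0.163). In each of them control 5 lay with the labelled knock-in libraries, and all 3 genes have GC contents of 57.9% to 58.4%. In labelled knock-in 1, 2 and 4 Fdft1 was at 18.8, 10.7 and 26.2 FPKM and Acly at 43.3, 42.4 and 52.9, each overlapping its controls. Scd1 was at 4.69, 4.99 and 1.75 FPKM, overlapping too, and Me1 at 5.62, 5.33 and 6.10, below every control without passing (-0.35, limma adjusted p = 0.151). Without control 5 Srebf1, Srebf2 and Fasn passed, at -1.84, -1.45 and -1.60 (adjusted p = 0.014, 0.0266 and 0.0277), whereas with the GC slope as a covariate they stood at 0.14, 0.40 and 0.12 (adjusted p = 0.732, 0.254 and 0.793).

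The 6 genes that rose have GC contents of 41.9% to 46.2%, and the highest values were in labelled knock-in 1 and 2, whose GC slopes are the lowest. With forestomach control 5, the 1 control with a slope below 0, as the only control, Sc5d passed (0.93, limma adjusted p = 0.0477) and the other 5 stood at 0.71 to 1.36 (adjusted p = 0.107 to 0.367), in a fit that called 0.512% of all genes. With the GC slope as a covariate all 6 passed again and Fdps, the farnesyl diphosphate synthase, passed too (0.72, limma adjusted p = 0.0326). Without the covariate Fdps had the opposite sign, at -0.89 (adjusted p = 0.336). It stood at -0.40 (adjusted p = 0.599) with the GC trend subtracted. With the GC trend subtracted from each library 5 of the 6 passed, all but Stard4 (0.87, adjusted p = 0.0638), along with Sqle (0.92, adjusted p = 0.0206) and Insig1 (0.72, adjusted p = 0.0327). Single libraries weighed heavily: 0 of the 31 passed limma without forestomach control 2 or without labelled knock-in 1 or 2 (8, 8 and 9 at an unadjusted p under 0.05), 5 without control 3, 18 without control 5 (8 higher and 10 lower) and 10 without labelled knock-in 4 (9 higher and 1 lower). The last pair of fits called 55.3% and 25.9% of all genes. Of 10 epithelium markers 1 rose in the same comparison, Epcam, from 121, 224 and 225 to 430, 340 and 422 FPKM (1.11, SE 0.27, limma adjusted p = 0.0393, and 0.0858 with the covariate). The median over the 10 was -0.56, the range -2.90 to 1.11, and their summed FPKM overlapped, at 416 to 1020 in controls and 526 to 951 in labelled knock-in. In addition 2 of 11 mesenchyme markers and 6 of 9 squamous markers fell and 0 of either rose. With the GC slope as a covariate 1 and 2 fell. With the GC trend subtracted 3 and 5 fell and 1 squamous marker rose. The summed FPKM of 10 squamous markers was 2060, 2140 and 439 in forestomach controls 2, 3 and 5. In labelled knock-in 1, 2 and 4 it was 312, 322 and 479, so control 5 lay within their range. The part of this shift in cell markers in the rise of the sterol genes was not tested.

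Promoter sequences are shown for the 5 risen enzymes with an entry, for Hmgcs1, and for the 2 genes that fell in the labelled knockout, because SREBP factors act at such promoters together with NF-Y, which binds the CCAAT box, and Sp1, which binds the GC box. They come from RefSeq (build GRCm38.p6, not the authors' build) and run from upstream of the gene's annotated start to just past it, 5′ to 3′ on the gene's strand. Of the 31 genes 25 matched by symbol, with 34 promoters. Capitals mark CCAAT or its reverse complement ATTGG and, in Hmgcs1, the sterol regulatory element TCACNCCAC.
Idi1 (chr13:8885356-8885655, + strand): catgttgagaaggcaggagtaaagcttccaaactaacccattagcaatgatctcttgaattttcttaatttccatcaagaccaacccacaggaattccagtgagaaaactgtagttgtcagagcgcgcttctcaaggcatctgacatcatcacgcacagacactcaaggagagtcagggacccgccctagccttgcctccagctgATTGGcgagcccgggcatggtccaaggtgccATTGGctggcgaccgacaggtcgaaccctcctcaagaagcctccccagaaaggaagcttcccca
Msmo1 (chr8:64733529-64733828, - strand): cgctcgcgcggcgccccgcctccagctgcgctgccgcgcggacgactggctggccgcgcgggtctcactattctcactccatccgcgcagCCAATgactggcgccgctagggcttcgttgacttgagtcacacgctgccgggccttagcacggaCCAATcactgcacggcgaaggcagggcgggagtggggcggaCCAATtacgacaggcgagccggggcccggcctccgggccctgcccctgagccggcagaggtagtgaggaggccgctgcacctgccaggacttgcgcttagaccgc
Hsd17b7 (chr1:169969156-169969455, - strand): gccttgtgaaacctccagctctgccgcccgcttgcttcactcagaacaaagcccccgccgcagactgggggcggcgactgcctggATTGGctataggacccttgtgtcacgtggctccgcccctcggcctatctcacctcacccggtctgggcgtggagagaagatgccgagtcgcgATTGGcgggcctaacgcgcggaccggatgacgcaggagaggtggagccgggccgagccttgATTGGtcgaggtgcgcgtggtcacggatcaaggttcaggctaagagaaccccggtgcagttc
Cyp51 (chr5:4104648-4104947, - strand): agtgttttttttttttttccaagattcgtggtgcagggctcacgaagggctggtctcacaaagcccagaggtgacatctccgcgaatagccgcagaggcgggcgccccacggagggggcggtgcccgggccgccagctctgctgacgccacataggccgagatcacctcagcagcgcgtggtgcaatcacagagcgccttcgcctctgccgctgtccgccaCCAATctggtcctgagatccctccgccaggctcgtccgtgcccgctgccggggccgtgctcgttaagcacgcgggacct
Sc5d (chr9:42264251-42264550, - strand): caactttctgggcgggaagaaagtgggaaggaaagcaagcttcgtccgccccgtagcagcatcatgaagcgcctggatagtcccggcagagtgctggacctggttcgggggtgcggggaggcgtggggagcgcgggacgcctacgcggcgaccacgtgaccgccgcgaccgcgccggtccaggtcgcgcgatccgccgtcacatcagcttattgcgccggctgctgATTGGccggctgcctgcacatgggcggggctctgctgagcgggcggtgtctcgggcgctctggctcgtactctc
Hmgcs1 (chr13:119690101-119690400, + strand): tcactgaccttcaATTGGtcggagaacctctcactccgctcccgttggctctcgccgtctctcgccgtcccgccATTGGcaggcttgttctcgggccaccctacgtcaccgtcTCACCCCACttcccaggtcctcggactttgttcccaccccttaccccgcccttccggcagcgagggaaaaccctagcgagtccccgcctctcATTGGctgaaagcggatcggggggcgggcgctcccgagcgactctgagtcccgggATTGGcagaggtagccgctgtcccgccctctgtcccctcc
Insig1 (chr5:28071162-28071461, + strand): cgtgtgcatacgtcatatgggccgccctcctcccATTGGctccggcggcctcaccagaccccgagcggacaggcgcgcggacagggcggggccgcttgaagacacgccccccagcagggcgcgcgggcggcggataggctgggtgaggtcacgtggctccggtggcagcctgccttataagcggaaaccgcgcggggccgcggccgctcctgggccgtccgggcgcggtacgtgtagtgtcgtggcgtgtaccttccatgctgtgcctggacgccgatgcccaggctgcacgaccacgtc
Fasn (chr11:120824498-120824797, - strand): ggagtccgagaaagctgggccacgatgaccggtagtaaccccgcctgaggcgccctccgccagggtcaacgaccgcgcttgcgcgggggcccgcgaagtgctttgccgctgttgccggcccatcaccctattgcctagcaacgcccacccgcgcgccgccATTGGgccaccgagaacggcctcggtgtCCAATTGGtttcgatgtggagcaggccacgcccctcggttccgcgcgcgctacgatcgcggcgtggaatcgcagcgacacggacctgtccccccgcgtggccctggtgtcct
The CCAAT box, searched on both strands, was found in 22 of the 34 promoters (64.7%) and in 37.4% of all 32851 promoters of this length. In Fasn a CCAAT and an ATTGG overlap. By gene, 21 of 25 held it in at least 1 promoter, against 41.1% of 27025 genes. The GC box GGGCGG was in 25 of the 34 (73.5%, against 35.7%) and the E-box CACGTG in 6 (17.6%, against 7.15%). The letters TCACNCCAC were found in 1 of the 34, that of Hmgcs1 (2.94%, against 1.24%), and the GATA core GATAA in 2 of the 34, both of Insig2 (5.88%, against 25.4%). The risen Idi1, Msmo1, Hsd17b7, Cyp51 and Sc5d each held a CCAAT box, but so did Mvk, Mvd, Srebf2 and Fasn, which did not rise, and these letters did not part the genes that rose from those that did not. A match is a description of the letters in this window and not of binding. Only these exact letters were searched, so a promoter without a match may hold an element with other letters.

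Neighbouring genes of the pathway were counted from lists outside the 31. Of 14 other genes of sterol synthesis and uptake, 2 were higher in control hindstomach than forestomach, among them Acss2, a cytosolic acetyl-CoA synthetase (0.78, limma adjusted p = 0.0373). In both mutant comparisons 0 of the 14 passed (6 lower without adjustment in the labelled knockout, 2 higher and 2 lower in the labelled knock-in, at a limma p under 0.05). Of 8 measured genes of sterol efflux and esterification, Soat1, which esterifies cholesterol for storage, was called in all 3 comparisons. It had means of 33.1 ± 1.85 FPKM in hindstomach controls (SD, n = 3), 23.7 ± 2.35 in labelled knockout (n = 5), 11.98 ± 0.653 in forestomach controls and 21.7 ± 1.86 in labelled knock-in (n = 3 each). Its groups did not overlap in any of the 3, with log2 fold changes of -0.47 (adjusted p = 0.0211) in the labelled knockout, 0.81 (0.0051) in the labelled knock-in and 1.39 (1.63e-05) between control regions. Mylip, a ubiquitin ligase that degrades the LDL receptor, was lower in control hindstomach than forestomach (-1.04, adjusted p = 0.00432) and fell in the labelled knock-in (-1.02, adjusted p = 0.0231, and -0.64 with 0.0622 when the GC trend was subtracted). These comparisons share control groups and are given side by side only.

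Of 20 other measured genes of fatty acid synthesis, elongation and activation, 8 were higher and 1 lower in control hindstomach, among them the elongases Elovl2 (1.62, limma adjusted p = 0.000201) and Elovl7 (1.47, adjusted p = 0.00702) and the desaturase Fads1 (0.82, adjusted p = 0.00151). Elovl7 (1.33, adjusted p = 0.04) and the acyl-CoA synthetases Acsl1 (0.91, adjusted p = 0.0209) and Acsl3 (1.2, adjusted p = 0.0332) were the 3 that rose in the labelled knock-in, with 0 fallen (2 without adjustment). With the covariate Elovl7 (0.85, adjusted p = 0.0948) and Acsl3 (0.73, adjusted p = 0.0572) no longer passed, and with the GC trend subtracted all 3 did. In the labelled knockout Fads3, a fatty acid desaturase (-1.22, adjusted p = 0.01), and Pgd, an NADPH-making enzyme of the pentose phosphate pathway (-1.54, adjusted p = 0.0387), fell and the elongase Elovl5 rose (0.82, adjusted p = 0.0306). With the GC slope as a covariate the calls of Pgd (-0.59, adjusted p = 0.0853) and Elovl5 (0.40, adjusted p = 0.0857) ended, while both passed with the GC trend subtracted. Of 13 genes of SREBP processing and degradation, 1 was called in each of 2 comparisons, Sec23a of the COPII coat that carries SREBP to the Golgi. It was lower in control hindstomach than forestomach (-1.10, limma adjusted p = 0.0036) and rose in the labelled knockout (0.83, adjusted p = 0.0211), a call that ended with the covariate (0.68, adjusted p = 0.0565) and with the GC trend subtracted (0.50, adjusted p = 0.0643). Of the 13 genes 0 passed in the labelled knock-in (2 higher and 1 lower without adjustment). Of 10 other isoprenoid genes 0 passed in any comparison (3, 3 and 0 at an unadjusted p under 0.05 by limma in the labelled knockout, the labelled knock-in and between regions).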

How the data were processed

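RNA-seq of E14.5 stomach epithelial cells gave 14 libraries, grouped by the submitters' titles. The authors deposited 1 table of FPKM values with 1 column per library. The genome build was mm9, per the submitters' processing notes, and RNA was column-purified and libraries were made with a directional kit, per the labels' protocols. The sources used here do not give the aligner, counter, annotation, strand setting or treatment of close gene copies. Of 22906 table entries 108 exact duplicates were dropped. Genes with 3 or more libraries at an FPKM of 1 or higher were analysed as log2(FPKM + 1), with a pseudocount of 1, which understates changes of low genes. Limma 3.58.1 in R 4.3.3 (statmod 1.5.0) fitted 1 mean per group over all 14 libraries (eBayes with trend and robust options), adjusted by Benjamini-Hochberg over 12694 genes, with calls under 0.05. The fit was tested on simulated data. Nothing in the labels says that libraries came from separate embryos, so p-values measure the spread between these libraries, which may be technical.

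Transcript GC content was that of the longest GENCODE transcript of each symbol (GRCm38), found for 99.33% of genes tested. The slope of each library on GC entered a fit as a covariate, and in another fit a lowess curve on GC was subtracted from each library. The latter, and fits on libraries picked by their slope, were chosen after the data were examined. Other alternatives were another pseudocount, other filters, quantile normalization, rescaling to a common sum, the compared groups alone, eBayes without trend, a replicate block and leaving out each library. Tables were handled in Python 3.11.15 with pandas 2.3.3.

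The 31 genes, the other lists and the motifs were chosen with earlier results of these data known. Values in every library are given for genes called in any comparison and for Hmgcs1, Sqle, Srebf1, Srebf2, Insig1, Fasn and Scd2. From the other pathway lists up to 3 called genes per comparison with the smallest adjusted p are named, and the text names Epcam, Gata4 and Mvk and the other uncalled genes with values outside this rule. Some genes are not reported here.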

Additional observations from a re-analysis of the deposited data

Results flagged for a closer look

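In the 5 libraries labelled knockout, Mvd, the mevalonate diphosphate decarboxylase, stood at 3.22 FPKM in number 5, while the other 4 lay between 0 and 0.665 FPKM. The gap between number 5 and the next library was 0.793 of the whole range, above the limit of 0.71 for 5 samples. In all, 31 genes were examined in this way in 1 group, and chance alone marks about 1 in 20.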

How the results depend on the processing

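Every log2 fold change called among the 31 genes as reported kept its sign under each alternative run. Called genes outside the 31 were not followed over all alternatives. Fdps, not called in the labelled knock-in as reported, was called with the GC slope covariate (0.72) and had the opposite sign without it (-0.89). It was not followed over all alternatives. In the labelled knockout the count of called genes among the 31 (2 as reported) was 1 with a pseudocount of 0.1, 1 with no filter on low values, 7 after quantile normalization, 11 with the compared groups alone, 1 with the GC slope covariate and 6 with the GC trend removed. With labelled knockout 4 and 5 only it was 0 by limma (1 at an unadjusted p under 0.05), and without each library in turn it ran from 0 to 13, the latter without labelled knockout 5. In the labelled knock-in (6 as reported) it was 0 with the compared groups alone by limma (6 at an unadjusted p under 0.05), 2 with forestomach control 5 as the only control, a lone library assumed to vary like the others, and 0 to 18 without each library in turn. Between control regions (7 as reported) it was 3 with the compared groups alone, 16 with the GC slope covariate, 11 with the GC trend removed and 4 to 9 without each library in turn.

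Counts over all genes were 1680 in the labelled knockout (4991 with the compared groups alone, 2674 with the GC trend removed, 84 with labelled knockout 4 and 5 only, 267 to 4124 without each library), 742 in the labelled knock-in (0 with the compared groups alone, where 1932 had an unadjusted limma p under 0.05, 489 after quantile normalization, 1252 with the GC trend removed, 65 with control 5 alone, 118 to 7015 without each library) and 2583 between regions (1431, 5331 and 4029 with the compared groups alone, the covariate and the GC trend removed, 1532 to 2680 without each library). The causes were not tested.

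Whether the same replicate numbers pair the libraries could not be decided, because deviations from the group means also hold each library's GC trend. These deviations correlated at 0.03, 0.06 and -0.25 for hindstomach controls and labelled knockouts 2, 3 and 4. There 2 of 6 libraries correlated best with their own number. For the control regions the correlations were 0.28 and -0.14. With a replicate block 16 of the 31 genes and 5427 of all genes were called in the labelled knockout, and 10 and 2892 between regions, where the median log2 fold change was 0.27 over the 31 genes and -0.03 over all genes. No paired analysis was possible for the labelled knock-in because its groups share 1 number.

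Rescaling to a common sum moved the median of all genes from -0.08 to 0.16 in the labelled knockout and from -0.37 to -0.04 in the labelled knock-in, and quantile normalization moved it to 0.14, 0.08 and, between regions, from 0.14 to 0.03. Relative to these medians the median of the 31 genes was -0.18, -0.15 and -0.20 in the labelled knockout as deposited, rescaled and after quantile normalization, 0.29, 0.39 and 0.09 in the labelled knock-in and 0.58, 0.58 and 0.52 between regions. Depth is unknown in FPKM, so values of genes under 1 FPKM, such as Mvd and Mvk in several libraries, are the least precise.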

Other observations

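Fatty acid oxidation, which breaks down in mitochondria what the synthesis genes build, was counted from a list of 16 measured genes. In the hindstomach labelled knockout 4 fell and 0 rose (8 and 0 at an unadjusted limma p under 0.05), and the groups did not overlap for 13 of the 16, all below the controls, where 24.9% of all genes lay below. Acads, the short-chain acyl-CoA dehydrogenase, fell from 10.9 ± 1.37 FPKM in controls (SD, n = 3) to 1.77 ± 2.29 (n = 5), with a log2 fold change of -2.40 (limma adjusted p = 0.0302). Acaa2, a thiolase, fell by 1.61 (adjusted p = 0.0259) and Eci1, an enoyl-CoA isomerase, by 2.24 (adjusted p = 0.0357). With the GC slope as a covariate 1 of the 16 was called, Acads at -0.95 (adjusted p = 0.0145), whereas with the GC trend subtracted from each library 9 of the 16 were, all lower, and the GC content of these 3 transcripts is 59.7%, 52.8% and 53.7%. Between control regions 2 of the 16 were higher in hindstomach, Hadh (1.36, adjusted p = 0.00427) and Acadm (0.79, adjusted p = 0.0208). In the labelled knock-in 0 passed limma (0 higher and 3 lower at an unadjusted p under 0.05).

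Of 12 genes of glycerolipid synthesis and lipid droplets, the droplet coat gene Plin3 (-0.69, limma adjusted p = 0.0145) and the triglyceride lipase Pnpla2 (-1.74, adjusted p = 0.0258) fell in the labelled knockout, and both passed with the GC slope as a covariate (-0.49 and -0.82, adjusted p = 0.0349 and 0.0455). With the GC trend subtracted they stood at -0.38 and -0.82 (adjusted p = 0.108 and 0.0189). Dgat2, which makes triglyceride, fell in the labelled knock-in (-1.33, adjusted p = 0.0453, 0.0964 with the covariate and 0.463 with the GC trend subtracted). Gpam (1.11, adjusted p = 0.0169) and Lpin1 (0.47, adjusted p = 0.0371), of the first steps of glycerolipid synthesis, were higher in control hindstomach than forestomach.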
